A study of Mus musculus with 32 samples.

Results

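Kidneys of male C57BL/6 mice, an inbred laboratory strain, were compared between Day 5 and Day 3 after cisplatin, a platinum drug that binds DNA and injures the kidney tubule. Every mouse was wild-type, 6 to 8 weeks old and had received a single intraperitoneal dose of 20 mg/kg, and each library held the kidney RNA of 1 mouse. The comparison uses 8 of the 32 libraries of the series, 4 at each day, chosen by their labels alone. Both groups carried the drug, and no untreated or vehicle-injected mice of Day 3 or Day 5 were analysed here, so the values describe the later against the earlier day of one injury. The question is how the injured male kidney changed between the days. Genes encoded by the mitochondrial genome (named mt-*) were removed before normalization, and each list of genes is counted with all 4 Day 5 libraries and again without the library labelled mouse 1.

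The proximal tubule reabsorbs most of the filtered glucose, amino acids and phosphate, makes glucose, burns fatty acids, and takes up drugs from the blood through organic cation and anion transporters. Cisplatin enters these cells by such transporters, and the proximal tubule is the best known site of its toxicity. The thick ascending limb, distal convoluted tubule and collecting duct lie further along the nephron and adjust salt, calcium, magnesium, acid and water. After tubular injury, surviving epithelial cells are known to lose differentiated functions and to express injury markers, and leukocytes enter the interstitium.

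The libraries of the later day differed from those of the earlier day before any gene was tested. Between 18682297 and 23257413 counts were found per library over the 8 mice. Mitochondrial genes took 11.3% to 12.6% of the counts at Day 3. At Day 5 they took 42.5% in the library labelled mouse 1 and 78.9%, 79.8% and 79.7% in mice 2, 3 and 4, which left 11334153, 4340573, 3780528 and 4722649 counts on other genes, against 16694667 to 18397808 at Day 3. Between 23964 and 24331 genes other than mt-* had a count at Day 3, against 22796, 19490, 18893 and 19388 at Day 5. At these depths 3 counts, taken as the floor of detection, correspond to 0.167 to 0.183 counts per 1000000 counts without mt-* (CPM) at Day 3 and to 0.252 to 0.749 CPM at Day 5. Intervals and floors cover counting error only.

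The library labelled mouse 1 went against its label. Xist, the RNA that coats the inactive X chromosome of females, stood at 0.167 to 0.304 CPM at Day 3 and at 349, 58.1, 22.2 and 12.9 CPM in the Day 5 libraries 1 to 4. The Y-linked Ddx3y was at 56.3 to 63.2 CPM at Day 3 and at 16.1, 42.5, 64.9 and 45.4 CPM at Day 5. Kdm5d, another Y-linked gene, was at 25.4 to 28.5 CPM at Day 3 and at 3.28, 16.6, 14.2 and 14.04 CPM at Day 5. Uty had 26.8 to 27.96 CPM at Day 3 and 3.45, 10.1, 19.2 and 15.1 CPM at Day 5, and Eif2s3y had 41.1 to 61.5 CPM and 9.75, 30.9, 37.7 and 33.1 CPM. The first Day 5 library was therefore the highest for Xist and the lowest for all 4 Y-linked genes. The other Day 5 libraries also departed from the Day 3 males, since each held more Xist, and less Kdm5d, Uty and Eif2s3y, than any Day 3 library. Without the first library these 3 Y-linked genes fell by 0.87, 0.93 and 0.59 on the log2 scale (adjusted p = 0.000319, 0.00199 and 0.00974). Xist was still higher by 7.18 there, against 9.05 with that library. Some male Day 0 libraries held Xist as well. On the scale of the 16 male libraries, Day 0 mice 1 to 4 had 3.77, 0.492, 0 and 19.3 CPM. Day 5 mice 2 to 4 had 54.6, 20.9 and 12.2 CPM on that scale. Of 8 genes known to be higher in the female kidney, 6 were highest in the library labelled mouse 1 among the 8 libraries, with Slc7a12 at 88.2 CPM against at most 8.28 CPM elsewhere, Prlr at 67.1 against 15.2 CPM and Ugt2b34 at 70.9 against 26.4 CPM. These 3 were picked after their values were seen. Cyp2a4, the most abundant member and picked likewise, was not among the 6, at 142 CPM against 154 to 266 CPM at Day 3, and the summed list was 198 to 319 CPM at Day 3 and 399.7, 147, 54.2 and 82.5 CPM at Day 5. Of 5 members tested 1 rose and 1 fell, or 1 and 2 without that library. List counts are therefore also given without it, as are the changes of single genes whose fold moved by more than 1.5 times when it was left out.

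**Figure D1:**
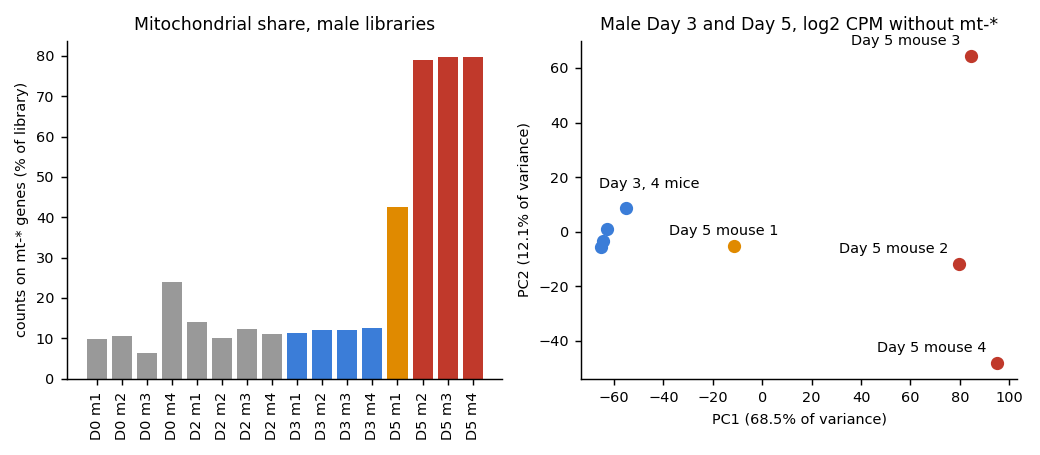
The left panel plots the percentage of counts on mt-* genes in the 16 male libraries (Day 0, 2, 3 and 5, mice m1 to m4), and the right panel the first 2 principal components of log2 CPM without mt-* over the 8 libraries compared, with Day 3 in blue, the library labelled Day 5 mouse 1 in orange and Day 5 mice 2 to 4 in red. The mt-* share is 11.3% to 12.6% in the Day 3 libraries and 42.5% to 79.8% in the Day 5 libraries, and the library labelled mouse 1 lies between the groups on PC1.

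In the principal component analysis, PC1 held 68.5% of the variance. The Day 3 mice lay between -65.2 and -55.3 on it, Day 5 mice 2 to 4 between 79.6 and 95.1, and the library labelled Day 5 mouse 1 at -11.3. The share of the squared distance that lay between the days (R2) was 0.563, and 0.720 without that library, each with a one-sided exact permutation p of 0.0286, the smallest that 35 splits can give. Without any 1 Day 3 mouse, R2 was 0.531 to 0.553 and the p was 0.0571.

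With all 8 libraries, 6087 of 15864 genes (38.4%) passed an adjusted p under 0.05 (edgeR's quasi-likelihood test, Benjamini-Hochberg), of which 3187 (20.1%) rose and 2900 (18.3%) fell. Differentially expressed genes (DEGs), with an absolute log2 fold change over 1.5 as well, numbered 1572 (9.91%), with 1036 higher (6.53%) and 536 lower (3.38%) at Day 5. Without the library labelled mouse 1, 9117 of 16711 genes (54.6%) passed, 4457 upwards (26.7%) and 4660 downwards (27.9%), and 2950 (17.7%) were DEGs, 1610 higher (9.63%) and 1340 lower (8.02%). Of the 6087 genes, 6042 also passed without that library, all in the same direction, and 5755 had a larger absolute fold change there. Over the 2950 DEGs, the library labelled mouse 1 lay a median of 29.96% (quartiles 14.1% and 47.4%) of the way from the Day 3 mean to the mean of Day 5 mice 2 to 4. The median log2 fold change over all genes tested was 0.01 with all libraries, against which the medians of the lists can be read. Counts of called members in a list can likewise be read beside the shares of all genes that rose and fell. CPM did not overlap between the groups for 6426 genes (40.5%). The 6087 genes dropped to 3678, 3863 and 3780 without Day 3 mice 2, 3 and 4 and to 3913 without Day 5 mouse 2. Of the DEGs, 65.9% were higher at Day 5 with all libraries, 54.6% without the library labelled mouse 1, 56.2% with a mouse-number block and 52.1% with voom sample weights.

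Most proximal tubule genes were lower at Day 5. All 44 members of the list were tested, and 28 fell, 0 rose and 16 did not pass; the median log2 fold change was -1.88. Without the library labelled mouse 1, 43 fell, and the median was -2.99. Over all genes 18.3% fell, or 27.9% without that library. The summed CPM of the list were 58669, 72386, 65527 and 71229 at Day 3 and 35219, 12993, 7418 and 13204 at Day 5, so every Day 5 library lay below every Day 3 library and the library labelled mouse 1 nearest to them. In bulk RNA, fewer cells of a type and less RNA per cell cannot be told apart.

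Among the transporters, Slc22a6 (OAT1, which takes up organic anions from the blood; chr19:8617996-8628299, GRCm38) had 1120, 1225, 1072 and 1104 CPM in the 4 Day 3 libraries and 342, 77.2, 43.4 and 89.0 CPM at Day 5. The groups were far apart, with the library labelled mouse 1 highest at Day 5. Slc22a6 fell by 3.03 on the log2 scale (SE 0.587, adjusted p = 0.0066), an 8.15-fold lower level, and by 4.04 without that library. Slc17a3, an organic anion and phosphate transporter, went from 358 to 653 CPM at Day 3 to 174, 56.4, 29.0 and 43.6 CPM at Day 5 and fell by 2.81 (SE 0.535, adjusted p = 0.00635), and by 3.65 without that library. Slc22a2 (OCT2, an organic cation transporter known to carry cisplatin, named here after its values were seen) had 332 to 433 CPM at Day 3 and 178, 76.3, 30.2 and 82.7 CPM at Day 5, without overlap, and fell by 2.09 (SE 0.436, adjusted p = 0.00812). Cyp4b1, a cytochrome P450 enzyme, had 1539, 2622, 2221 and 2802 CPM at Day 3 and 368, 105, 69.6 and 62.1 CPM at Day 5. It had the deepest fall of the list, with a log2 fold change of -3.92 (SE 0.61, adjusted p = 0.00349) with all libraries and of -4.88 without the library labelled mouse 1.

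For 3 further members, picked after their values were seen, the library labelled mouse 1 lay just below the Day 3 range for Hnf4a and Lrp2 and further below it for Slc34a1, and Day 5 mice 2 to 4 were far lower. Slc34a1, the main phosphate transporter of the brush border, had 4360 to 6667 CPM at Day 3 and 2809, 701, 374 and 282 CPM at Day 5, and fell by 2.47 (adjusted p = 0.0217), or by 3.70 without that library. The transcription factor Hnf4a, which maintains the proximal tubule programme, had 844 to 1089 CPM at Day 3 and 694, 216, 141 and 115 CPM at Day 5, and fell by 1.71 (adjusted p = 0.0304), or by 2.62 without that library. The endocytic receptor Lrp2 (megalin) had 1297 to 2589 CPM at Day 3 and 1166, 220, 111 and 70.4 CPM at Day 5. Its log2 fold change of -2.29 just missed the threshold with all libraries (adjusted p = 0.0502) and was -3.86 without the library labelled mouse 1 (adjusted p = 4.36e-05).

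Promoters of the list were inspected for letters. RefSeq promoter sequences (GRCm38.p6, 250 bases before to 50 after each annotated start) were found for 36 of the 44 members. The half-site of HNF1, a homeodomain factor of the proximal tubule, was searched as GTTAAT on both strands and occurred in 10 of 36 (27.8%), against 8.24% of the 27025 genes with a promoter. The core CAAAGTCC of HNF4 occurred in 4 of 36 (11.1%) against 1.63%, and TATAAA in 9 of 36 (25%) against 15.7%. These motifs were chosen with results of these data known, a match is not evidence of binding, and 5 of the 10 genes with the HNF1 half-site fell with all libraries, beside 28 of 44 in the whole list. Without the library labelled mouse 1 all 10 fell, beside 43 of 44. The 5 that fell with all libraries are printed so that the matched letters can be seen. Each line runs 5′ to 3′ on the gene's strand, and capitals mark the first match.
Slc34a1, chr13:55399547-55399576, plus strand: tgaagattagcaATTAACtggaaggaatct
Slc22a6, chr19:8617928-8617957, plus strand: aatactcacaggGTTAATccttctgacacc
Dab2, chr15:6386671-6386700, plus strand: gctttagttcgaGTTAATaaacagttaagt
Pck1, chr2:173152869-173152898, plus strand: ctcccaacattcATTAACaaccacaagttc
Hnf4a, chr2:163547062-163547091, plus strand: gcaacgggggtgATTAACcattaactccta
The matches started at positions -89, -56, -65, -192 and -81 of these genes in this order, counted from the annotated start. Dab2, an endocytic adaptor, fell by 1.37 (adjusted p = 0.0151).

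Metabolic genes of the same segment fell in part. Of 29 genes of fatty acid oxidation and PPAR signalling tested, 13 fell and 2 rose, with a median log2 fold change of -0.94. Without the library labelled mouse 1, 22 of 30 fell and 2 rose (median -1.28). Over all genes 18.3% fell and 20.1% rose, or 27.9% and 26.7% without that library. Ehhadh, an enzyme of peroxisomal fatty acid oxidation, had 844, 814, 934 and 933 CPM at Day 3 and 561, 159, 71.9 and 80.3 CPM at Day 5. The groups did not overlap, with the library labelled mouse 1 nearest to Day 3, and Ehhadh fell by 2.01 (SE 0.61, adjusted p = 0.0295) and by 3.11 without that library. Acaa1b, a thiolase of the same pathway, had 450 to 669 CPM at Day 3 and 441, 107, 74.1 and 62.9 CPM at Day 5, and fell by 1.69 (adjusted p = 0.0469), or by 2.79 without that library.

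Of 23 glycolysis and gluconeogenesis genes, 7 fell and 6 rose, where 18.3% of all genes fell and 20.1% rose, and the median was 0.14 (10 fell and 8 rose without the library labelled mouse 1, median 0.12). Fbp1, which removes a phosphate in gluconeogenesis, had 1224, 1354, 1234 and 1351 CPM at Day 3 and 716, 187, 115 and 78.7 CPM at Day 5, and fell by 2.23 (SE 0.628, adjusted p = 0.0224), or by 3.37 without that library. Pck1, the committed step of glucose synthesis, ranged from 2296 to 8145 CPM at Day 3 and had 2540, 761, 459 and 364 CPM at Day 5; the groups overlapped through the library labelled mouse 1, and Pck1 fell by 2.32 (adjusted p = 0.025), or by 3.31 without it. Hexokinase 2 (Hk2) opens glycolysis and rose from 4.41 to 5.79 CPM to 10.2, 31.98, 10.98 and 21.3 CPM, a log2 fold change of 1.82 (SE 0.36, adjusted p = 0.00685). Of 22 genes of cholesterol synthesis and uptake, 8 fell and 2 rose (median -0.60; 11 and 2 without that library, median -0.85). Cyp51, which demethylates lanosterol, fell by 1.73 (adjusted p = 0.0138) from 145 to 357 CPM to 134, 98.0, 37.7 and 51.3 CPM, without overlap, and Idi1, an isomerase earlier in the pathway, fell by 1.37 (adjusted p = 0.0129).

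A list of 8 genes known to be higher in the male than in the female kidney held 5 of the 10 deepest falls named here. Slco1a1, an organic anion transporter (chr6:141907282-141946962), had 190, 334, 266 and 292 CPM at Day 3 and 3.03, 0.895, 2.25 and 8.55 CPM at Day 5. All 4 Day 5 libraries were low, the library labelled mouse 1 among them, and the fall of 6.21 on the log2 scale (SE 0.527, adjusted p = 0.000911) was 6.11 without it. Cyp2j13, an epoxygenase, had 195, 318, 210 and 326 CPM at Day 3 and 6.30, 2.01, 2.75 and 7.89 CPM at Day 5, a fall of 5.74 (SE 0.417, adjusted p = 0.000721). The 8 genes of this list all fell in both fits (median -4.27, and -4.65 without the library labelled mouse 1). The steroid glucuronidation genes Ugt2b37 and Ugt2b38 fell by 5.77 and 4.52, the latter by 5.35 without that library; their family is closely related in sequence, so reads may have been split among members. Cyp7b1 (an oxysterol hydroxylase) fell by 4.01, and Kap, the most abundant of the list and named after its value was seen, by 1.87, the least of its members. Beside Cyp4b1, the deepest falls outside the list were Pzp (a protease inhibitor, log2 fold change -5.30, or -5.97 without that library), Slc22a30 (-4.61), Eps8l3 and Cym. Eps8l3 had 110 counts over the Day 3 and 2 over the Day 5 libraries, a 19.7-fold lower rate (95% counting interval 5.34 to 165), and Cym 149 and 3 counts, a 17.8-fold lower rate (5.98 to 87.4).

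The change from Day 3 to Day 5 was tested against the same change in females, in a fit over 16 libraries. It differed between the sexes for 1002 of 17402 genes (5.76%; 569, or 3.27%, with the higher change in males and 433, or 2.49%, with the lower). The female comparison alone gave 0 of 16764 genes at an adjusted p under 0.05 in edgeR (1965 at an unadjusted p under 0.05). In female Day 5 libraries 1 to 4, mt-* genes took 31.6%, 77.9%, 22.2% and 9.30% of the counts. They took 42.5% to 79.8% in the libraries labelled male Day 5. The part of this share in the sex difference was not tested. The 1002 genes became 246 to 3936 when 1 library was left out, 3936 of them without the library labelled male Day 5 mouse 1. In the order of the adjusted p, Ugt2b37 (chr5:87240493-87254804), Cyp7b1 (chr3:18071950-18243338) and Galns (a lysosomal sulfatase, chr8:122578242-122611463) came first, at an adjusted p of 0.000466 each. Cyp7b1, at the scale of the 16 libraries, had 140, 232, 181 and 250 CPM in Day 3 males, 10.7, 16.4, 7.30 and 15.7 CPM in the libraries labelled male Day 5, of which the first goes against its label, 3.13 to 4.31 CPM in Day 3 females and 1.56 to 4.68 CPM in Day 5 females. Day 3 males thus stood far above the other 3 groups, and the interaction was -3.84 (SE 0.423), with a log2 fold change of -0.20 in females (adjusted p = 0.844). The interaction was -5.66 (SE 0.598) for Ugt2b37 and -2.33 (SE 0.254) for Galns, whose Day 3 males had 152 to 188 CPM and whose 3 other groups lay between 24.8 and 58.6 CPM. Of 17919 genes tested without the library labelled male Day 5 mouse 1, 9.47% had the higher and 12.5% the lower change in males. By list, the change was lower in males for 8 of 44 proximal tubule genes (42 without that library) and 6 of 8 male-higher genes (also 6 without it). It was higher in males for 7 of 15 principal cell genes and 5 of 19 intercalated cell genes, or for 8 and 7 without that library. It was also higher in males for 10 of 12 adipocyte genes, with a median interaction of 2.40, and for 5 of 9 neutrophil genes, with a median of 3.61, or for 12 of 12 and 8 of 10 without it. The part of these other cell types in the sex difference was not tested.

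**Figure D2:**
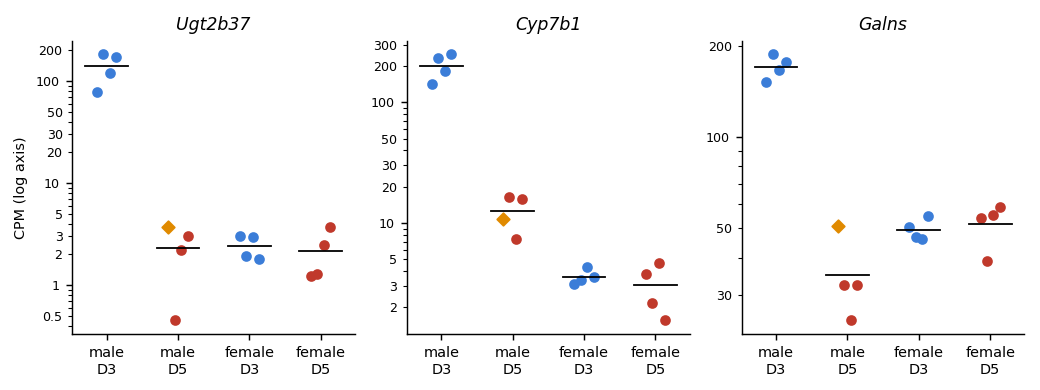
Each panel plots CPM (log axis) of one gene in the 4 libraries of male and female Day 3 (blue) and Day 5 (red), with the mean as a bar and the library labelled male Day 5 mouse 1 as an orange diamond. For Ugt2b37, Cyp7b1 and Galns, the Day 3 males lie above the Day 5 males and above both female groups.

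In the distal convoluted tubule and collecting duct lists more members rose than fell. Of 20 genes of the distal convoluted tubule and of calcium and magnesium handling, 8 rose and 2 fell (median 0.59). The counts were 10 and 4 without the library labelled mouse 1. Over all genes 20.1% rose and 18.3% fell, or 26.7% and 27.9% without that library. Pvalb (parvalbumin, a calcium-binding protein of the early distal convoluted tubule; chr15:78191114-78206400) had 2.62, 5.60, 6.23 and 9.30 CPM at Day 3 and 69.3, 221, 30.2 and 271 CPM at Day 5. The lowest Day 5 library lay above the highest Day 3 library, and Pvalb was 24.8-fold higher (log2 fold change 4.63, SE 0.715, adjusted p = 0.00349). Calb1 (calbindin, which shuttles calcium through distal cells) had 75.3, 68.4, 92.7 and 121 CPM at Day 3 and 381, 370, 279 and 589 CPM at Day 5, a 4.53-fold rise (adjusted p = 0.00223) that was 4.55-fold without the library labelled mouse 1. S100g, another calcium-binding protein, rose 5.90-fold, from 193 to 325 CPM to 1018 to 2367 CPM. On the scale of the 16 male libraries, Calb1 stood at 395 ± 37.2 CPM at Day 0, 170 ± 53.4 at Day 2, 83.6 ± 21.9 at Day 3 and 380 ± 123 at Day 5 (mean ± SD, n = 4 each), so that its Day 5 mean was near the Day 0 mean; that difference was not tested.

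In the collecting duct, 10 of 15 principal cell genes rose and 0 fell (median 0.73), or 10 and 1 without the library labelled mouse 1 (median 0.70). Over all genes 20.1% rose and 18.3% fell, or 26.7% and 27.9% without that library. Aqp2, the water channel under vasopressin control (chr15:99579055-99584547), had 699, 593, 606 and 520 CPM at Day 3 and 1010, 1913, 2086 and 2040 CPM at Day 5, without overlap. It rose 2.92-fold (log2 fold change 1.54, SE 0.259, adjusted p = 0.00419), and the library labelled mouse 1 was the lowest at Day 5. Elf5, a transcription factor of these cells, and the potassium channel subunit Kcne1 rose by 2.25 and 1.67 on the log2 scale (adjusted p = 0.00331 and 0.00541). Intercalated cells secrete acid or base; 13 of 19 of their genes rose and 1 fell (median 0.90; 13 and 2 without that library, median 0.82). Atp6v1g3, a proton pump subunit (chr1:138273738-138289462), had 29.0 to 30.9 CPM at Day 3 and 100.02, 142, 216 and 241 CPM at Day 5, a 5.88-fold rise (log2 fold change 2.56, SE 0.258, adjusted p = 0.00163). The pump subunit Atp6v1c2 and the ammonia transporter Rhbg rose 4.72-fold and 6.21-fold (adjusted p = 0.00218 and 0.00223), with all Day 5 libraries above all Day 3 libraries.

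Of 15 thick ascending limb genes, 5 rose and 0 fell (median 0.13), where 20.1% of all genes rose and 18.3% fell. Without the library labelled mouse 1, 5 rose and 4 fell (median -0.22), shares near the 26.7% and 27.9% of all genes. Bsnd (barttin, a membrane protein of the segment) had 53.4, 66.3, 66.1 and 71.4 CPM at Day 3 and 107, 173, 140 and 201 CPM at Day 5, without overlap, and rose by 1.27 on the log2 scale (SE 0.195, adjusted p = 0.00343). Ppp1r1a, a phosphatase inhibitor, rose by 1.77 (adjusted p = 0.00498). Umod (uromodulin, the main secreted protein of the segment, named after its value was seen) had a log2 fold change of -0.94 (adjusted p = 0.141) and of -1.59 without the library labelled mouse 1 (adjusted p = 0.00196).

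Markers of the glomerulus and of vessels are read beside all genes, of which 20.1% rose and 18.3% fell with all libraries and 26.7% and 27.9% without the library labelled mouse 1. Of 15 podocyte genes, 4 fell and 2 rose (median -0.74), whereas 9 fell and 3 rose without that library (median -0.92). Synpo, an actin-binding protein of the foot processes, had 125, 109, 126 and 102 CPM at Day 3 and 88.1, 67.5, 66.1 and 48.7 CPM at Day 5, and fell by 0.77 (SE 0.175, adjusted p = 0.0107). Podxl, the charged coat protein of podocytes, and the phosphatase Ptpro fell by 0.84 and 1.22 (adjusted p = 0.0241 and 0.0296), and Ptpro by 1.84 without that library. Of 19 endothelial genes, 5 rose and 3 fell (median 0.46), whereas 11 rose and 3 fell without it (median 0.69). Plat, the tissue plasminogen activator, rose 3.18-fold and the transcription factor Sox17 2.90-fold, while Egfl7 had 46.4 to 55.9 CPM at Day 3 and 50.9, 81.4, 91.9 and 202 CPM at Day 5, overlapping through the library labelled mouse 1 (log2 fold change 1.05, adjusted p = 0.0434).

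**Figure D3:**
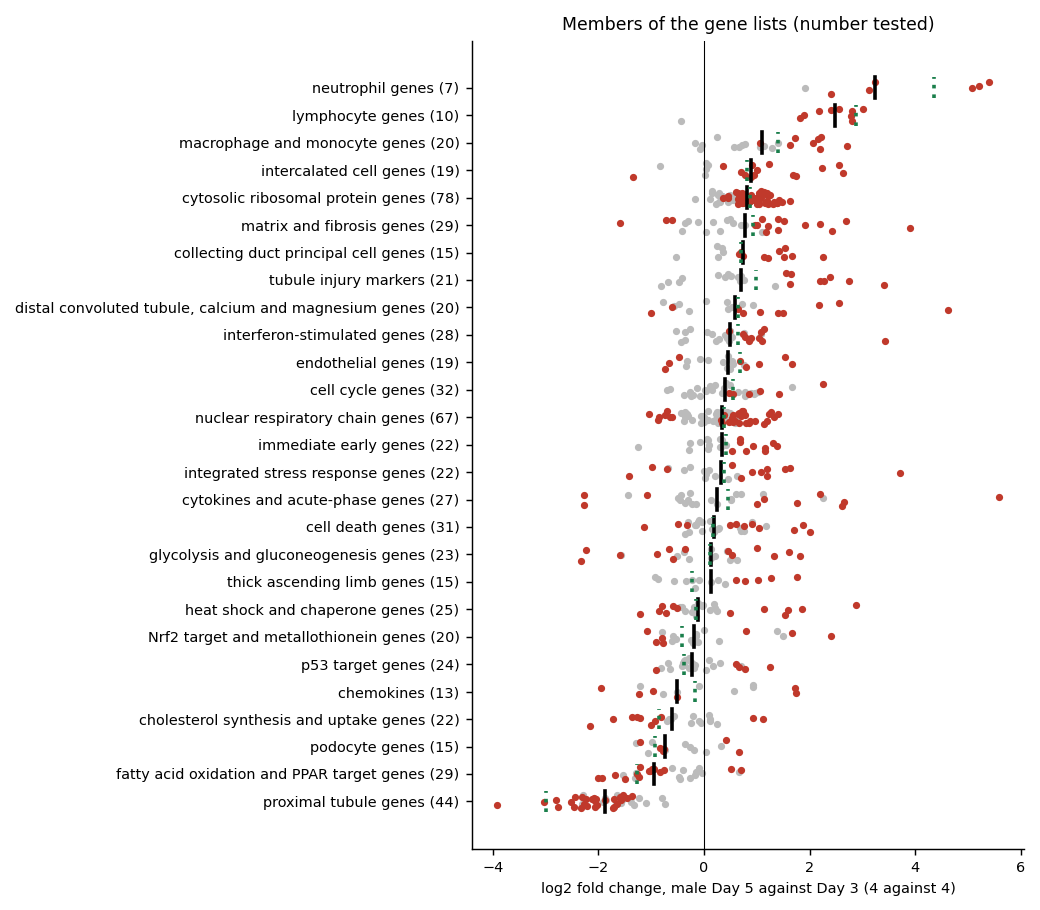
Each point is the log2 fold change of one gene, male Day 5 against Day 3 with 4 libraries each, in the list named at the left with its number of tested members; red points pass an adjusted p under 0.05 and grey points do not. Black bars mark the list median with all libraries and dotted green bars the median without the library labelled mouse 1, from -1.88 (proximal tubule) to 3.24 (neutrophil) with all libraries.

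Some leukocyte genes rose from low levels. Of 20 macrophage and monocyte genes 8 rose, 0 fell and 12 did not pass (median 1.10). The library labelled mouse 1 left out, 16 rose and 0 fell (median 1.40). Over all genes 20.1% rose and 18.3% fell, or 26.7% and 27.9% without that library. Lyz2 (lysozyme) had 47.5, 26.5, 27.6 and 29.0 CPM at Day 3 and 38.2, 167, 263 and 138 CPM at Day 5. Its groups overlapped through the first library of each, and it rose by 2.21 (SE 0.488, adjusted p = 0.0101). Tyrobp, an adaptor of myeloid receptors, rose 4.63-fold, and Ly6c2, a monocyte surface protein, had 0.668 to 0.730 CPM at Day 3 and 0.841, 7.604, 2.496 and 8.11 CPM at Day 5 (adjusted p = 0.0125). Adgre1 (F4/80, the classical marker of resident macrophages, named after its value was seen) had a log2 fold change of -0.04 (adjusted p = 0.946), and Csf1r, the receptor for the macrophage growth factor CSF1, also named after its value was seen, of -0.07 (adjusted p = 0.683). The summed macrophage list was 304 to 346 CPM at Day 3 and 304, 751, 715 and 959 CPM at Day 5, so the library labelled mouse 1 held no more of it than the Day 3 libraries.

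Neutrophil genes passed the filter for 7 of 16 members, of which 6 rose (median 3.24; 10 of 10 without the library labelled mouse 1, median 4.37). S100a8, a subunit of calprotectin (chr3:90668978-90670035), had 1.46, 0.679, 1.45 and 0.402 CPM at Day 3 and 4.96, 109, 40.9 and 16.7 CPM at Day 5, without overlap and with a wide spread at Day 5 (log2 fold change 5.40, SE 0.949, adjusted p = 0.00483). Its partner S100a9 rose by 5.22 and the chemokine receptor Cxcr2 by 5.08, the latter from 0 to 6 counts per library to 9 to 37. Of 10 lymphocyte genes tested, 9 rose (median 2.48; 10 of 11 without that library, median 2.88); the T cell gene Cd3d had 0.122 to 0.509 CPM at Day 3 and 0.925 to 2.63 CPM at Day 5, or 2 to 9 and 8 to 12 counts per library. The B cell gene Ms4a1 rose by 3.00 on 2 to 5 and 4 to 16 counts per library. A gene could pass the filter through the Day 5 libraries alone, so these counts do not describe all members.

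The erythroid and adipocyte markers moved with these changes, and their part in the results was not tested. Haemoglobin genes were the largest rises: Hbb-bs had 1.34, 0.113, 0.278 and 0.344 CPM at Day 3 and 162, 4033, 659 and 1902 CPM at Day 5 (log2 fold change 11.66, SE 1.33, adjusted p = 0.0021), and Hba-a1 rose by 10.95. Hba-a2 had 0 counts at Day 3 and 2245 at Day 5, at least 703-fold higher against a floor of 3 counts in each Day 3 library. Hbb-bt had 3 and 4071 counts, a ratio of 3782 (95% counting interval 1293 to 18350). The alpha copies and the beta copies are each nearly alike in sequence, so their reads may have been split. Alas2, the erythroid enzyme of haem synthesis, rose by 6.69, whereas the erythroid transcription factor Klf1 had 3.85 to 6.39 CPM at Day 3 and 0.447 to 3.61 CPM at Day 5. Of 8 erythroid genes tested 5 rose and 1 fell (6 and 1 of 9 without the library labelled mouse 1), and their summed CPM were 50.2 to 61.0 at Day 3 and 344, 8347, 1382 and 4008 at Day 5. In the male Day 0 kidneys the list summed to 636 to 2995 CPM on the scale of the 16 male libraries.

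All 12 adipocyte genes rose, also without the library labelled mouse 1. Their median was 3.00, or 3.25 without it, and their summed CPM were 570 to 800 at Day 3 and 2076, 10462, 5901 and 5668 at Day 5. On the scale of the 16 male libraries, the sums were 1049, 1063, 1369 and 5498 CPM in male Day 0 mice 1 to 4. They were 1945, 9821, 5542 and 5328 CPM at Day 5 on that scale. Adipoq (adiponectin, the hormone that defines fat cells) had 24.9 to 31.9 CPM at Day 3 and 76.8, 318, 234 and 159 CPM at Day 5. Further rises among the 10 largest were Sfrp5 (a secreted Wnt inhibitor, by 5.99), Rbp7 (a retinol-binding protein of fat and vessels, by 5.63 on 0 to 5 and 5 to 48 counts per library), Orm1 (an acute-phase protein, by 5.60), and Chga and Scg2 (granins of neuroendocrine cells, by 7.38 and 5.94). Chga had 37.99, 6.71, 3.99 and 3.73 CPM at Day 5, highest in the library labelled mouse 1, and 5 counts in Day 3 mouse 1 but 0 in the other Day 3 libraries. Scg2 had 17.7, 1.79, 0.998 and 1.32 CPM at Day 5, again highest in that library, and 5, 0, 0 and 1 counts at Day 3. On the scale of the 16 male libraries, Chga also stood at 43.1 and Scg2 at 20.1 CPM in male Day 2 mouse 2. Without the library labelled Day 5 mouse 1 the rises of Chga and Scg2 were 5.84 and 3.81. Adrenal medulla genes, among them Chga, summed to 120 to 169 CPM at Day 3 and 180, 31.8, 18.5 and 22.8 CPM at Day 5. Of 2 tested, 1 rose and 1 fell (2 and 1 of 3 without that library). Adrenal cortex genes summed to 104 CPM in Day 3 mouse 1, 7.92 to 9.56 CPM in the other Day 3 libraries and 265, 186, 94.6 and 57.9 CPM at Day 5, with 2 of 7 higher at the threshold (3 of 8 without that library). Of 10 hepatocyte genes tested 4 fell and 2 rose (6 and 2 of 11 without that library), with Alb, which defines the list, at 4.38 to 7.41 CPM at Day 3 and 1.12 to 5.74 CPM at Day 5; 0 of 4 skeletal muscle genes passed (0 of 5 without that library), and exocrine pancreas genes summed to at most 2.01 CPM.

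**Figure D4:**
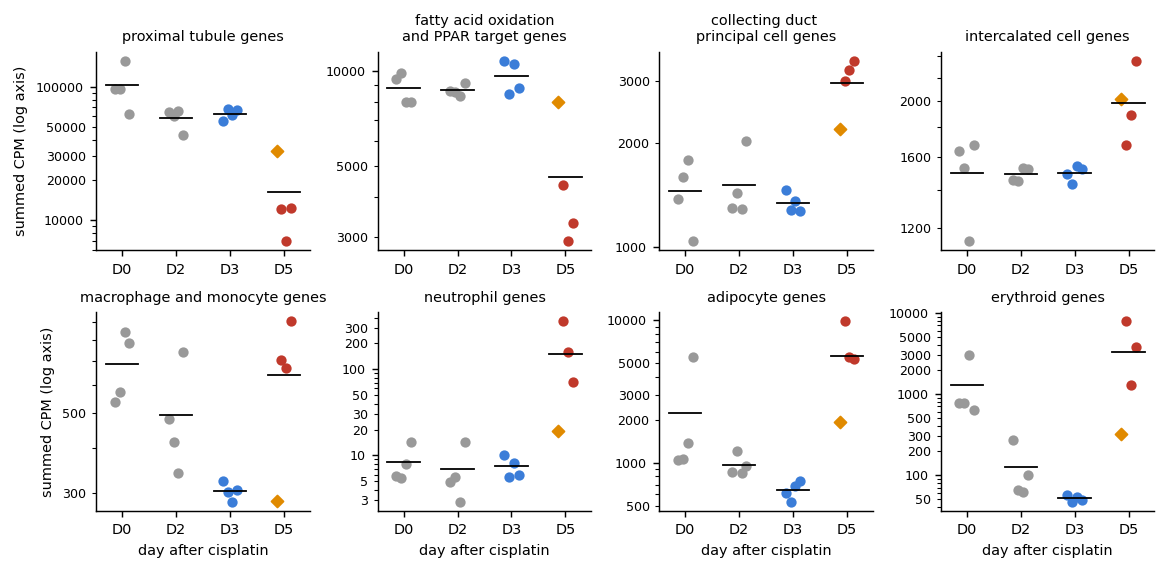
Summed CPM (log axis, scaled over the 16 male libraries) of 8 lists are plotted per library against the day after cisplatin, with the mean of each day as a bar, Day 3 in blue, Day 5 in red and the library labelled Day 5 mouse 1 as an orange diamond. The proximal tubule sum is 62681 ± 5864 CPM at Day 3 and 16146 ± 11519 at Day 5 (mean ± SD, n = 4), and the adipocyte and erythroid sums are higher in every Day 5 than in every Day 3 library.

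Injury markers of the tubule rose in part. Of 21 tested, 8 rose and 0 fell (median 0.71), where 20.1% of all genes rose and 18.3% fell. These shares were 26.7% and 27.9% without the library labelled mouse 1, when 10 markers rose and 1 fell (median 0.98). Cryab, a small heat shock protein of stressed epithelium (chr9:50751325-50756636), had 166, 159, 154 and 169 CPM at Day 3 and 571, 2845, 1421 and 2016 CPM at Day 5. The Day 3 mice were tightly grouped, every Day 5 library was higher, and the rise was 10.6-fold (log2 fold change 3.40, SE 0.436, adjusted p = 0.0024). The keratin Krt19 and the annexin Anxa1 rose 6.71-fold and 5.22-fold (adjusted p = 0.00582 and 0.00381). The clinical markers did not pass. Lcn2 (NGAL) had 124, 32.3, 43.9 and 10.6 CPM at Day 3 and 12.9, 28.8, 262 and 31.4 CPM at Day 5, with overlap and a log2 fold change of 0.65 (SE 0.972, adjusted p = 0.614) that was -1.17 without Day 5 mouse 3. Havcr1 (KIM-1) had 4.87, 3.96, 3.84 and 2.12 CPM at Day 3 and 1.34, 0.895, 7.49 and 1.97 CPM at Day 5 (log2 fold change -0.42, SE 0.595, adjusted p = 0.59).

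**Figure D5:**
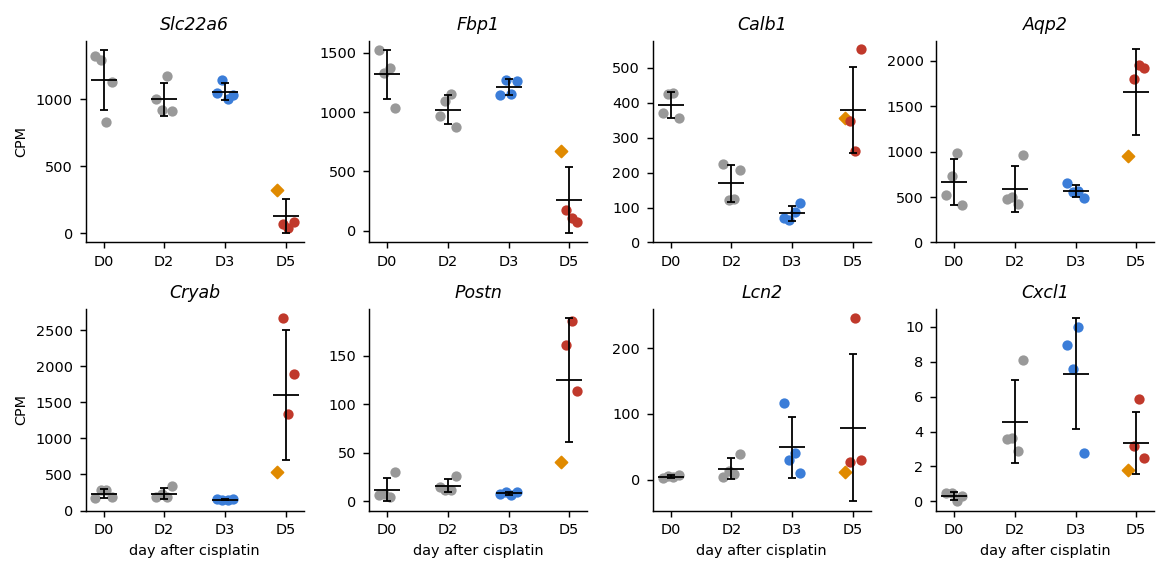
CPM (scaled over the 16 male libraries) of 8 genes are plotted per library against the day after cisplatin, with mean ± SD (n = 4) in black and the library labelled Day 5 mouse 1 as an orange diamond. Slc22a6 and Fbp1 are lower and Calb1, Aqp2, Cryab and Postn higher in every Day 5 library than in every Day 3 library, whereas the days overlap for Lcn2 and Cxcl1.

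Among 24 targets of p53, the transcription factor that answers DNA damage, 4 rose and 1 fell (median -0.23). The share that rose was below the 20.1% of all genes, and without the library labelled mouse 1, when 26.7% of all genes rose and 27.9% fell, 5 rose and 7 fell (median -0.39), shares near those of all genes. Phlda3, an inhibitor of Akt signalling, had 87.2, 50.4, 74.9 and 58.8 CPM at Day 3 and 103, 202, 227 and 111 CPM at Day 5, a 2.37-fold rise (adjusted p = 0.0114), and Ddit4l rose 1.71-fold. Zmat3, an RNA-binding p53 target, fell by 0.90 (adjusted p = 0.0419), with the library labelled mouse 1 at 72.6 CPM and the other Day 5 libraries at 22.4 to 45.4 CPM. Cdkn1a (p21, named after its value was seen) had a log2 fold change of 0.10 (SE 0.551, adjusted p = 0.897).

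Among 22 genes of the integrated stress response 9 rose and 3 fell (median 0.33), where 20.1% of all genes rose and 18.3% fell. The counts were 10 and 4 without the library labelled mouse 1, when these shares were 26.7% and 27.9%. Nupr1, a chromatin-bound stress protein (chr7:126623249-126630861), had 28.3 to 30.04 CPM at Day 3 and 95.1, 654, 248 and 531 CPM at Day 5, a 13.1-fold rise (log2 fold change 3.72, SE 0.528, adjusted p = 0.003). Atf5 and the serine synthesis enzyme Phgdh rose 3.08-fold and 2.91-fold. Of 25 heat shock genes 6 rose and 6 fell (6 and 7 without that library), shares near those of all genes; the small heat shock protein Hspb1 rose 7.37-fold (27.5 to 44.9 CPM against 81.2, 331, 351 and 283 CPM, adjusted p = 0.00297), Hspb8 3.63-fold and Hspa1b 3.00-fold. The antioxidant list of Nrf2 targets and metallothioneins, of 20 genes, had 3 that rose and 4 that fell (4 and 8 without that library), with all libraries also near the shares of all genes: Gsta4, which conjugates lipid peroxidation products to glutathione, had 22.9 to 30.2 CPM at Day 3 and 199, 125, 127 and 110 CPM at Day 5 (5.32-fold, adjusted p = 0.000903), whereas Gclm, of glutathione synthesis, fell by 1.07 with the library labelled mouse 1 at 337 CPM, inside the Day 3 range. Mt1, a metal-binding protein, rose 3.19-fold (adjusted p = 0.0157).

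Of 31 cell death genes 8 rose and 3 fell, where 20.1% of all genes rose and 18.3% fell (median 0.19; 12 and 5 of 32 without the library labelled mouse 1). Casp12, Pycard (the inflammasome adaptor) and Casp1 rose 4.04-fold, 3.67-fold and 3.25-fold, Casp1 on 17 to 27 counts per library at either day. Of 22 immediate early genes 9 rose and 0 fell (9 and 2 of 23 without that library), among them Nr4a2, Klf2 and Maff with log2 fold changes of 1.38, 1.30 and 1.16. Of 28 interferon-stimulated genes 11 rose and 0 fell (median 0.50), and 18 rose and 1 fell without that library (median 0.64): Ifi27l2a had 15.1 to 16.7 CPM at Day 3 and 54.9, 196, 161 and 266 CPM at Day 5 (10.7-fold, adjusted p = 0.00223), while Isg15 had 5.91 to 10.5 CPM and 6.05, 23.5, 15.97 and 22.6 CPM (adjusted p = 0.0482), with the library labelled mouse 1 inside the Day 3 range.

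Of 13 chemokines tested, 4 fell and 2 rose, where 18.3% of all genes fell and 20.1% rose. The median was -0.50, or -0.18 without the library labelled mouse 1, when 5 of 14 fell and 2 rose. Cxcl1, which draws neutrophils, had 9.55, 8.09, 10.7 and 2.98 CPM at Day 3 and 1.93, 3.36, 6.24 and 2.63 CPM at Day 5, a log2 fold change of -1.21 that did not pass (SE 0.471, adjusted p = 0.067). Ccl28, an epithelial chemokine, fell by 1.95 (35.4 to 71.3 CPM against 31.7, 8.72, 3.74 and 5.04 CPM, adjusted p = 0.0279) and by 3.15 without the library labelled mouse 1. The T cell attracting chemokines Ccl5 and Cxcl9 rose by 1.72 and 1.74 (adjusted p = 0.0213 and 0.0499), each with overlapping groups and 9 to 58 counts per library. Ccl6 had a log2 fold change of 0.93 (adjusted p = 0.358), carried by Day 5 mouse 3 at 102 CPM beside 7.73, 15.4 and 8.99 CPM in the other Day 5 libraries.

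Of 27 cytokine and acute-phase genes 7 rose and 3 fell, where 20.1% of all genes rose and 18.3% fell (median 0.25; 12 and 3 of 28 without the library labelled mouse 1, median 0.46). Hp (haptoglobin, which binds free haemoglobin) had 79.1, 28.1, 48.9 and 36.2 CPM at Day 3 and 82.8, 382, 554 and 198 CPM at Day 5 (6.32-fold, adjusted p = 0.00871), and the acute-phase protein Saa3 rose by 2.62 with overlapping groups (adjusted p = 0.0404). Il13ra1, a receptor chain for IL-13, fell by 1.07 (SE 0.21, adjusted p = 0.00674), from 55.6 to 72.7 CPM to 41.4, 23.5, 34.2 and 21.9 CPM. Lif had 4.65 to 16.3 CPM at Day 3 and 3.11, 3.58, 9.98 and 1.32 CPM at Day 5 (log2 fold change -1.45, adjusted p = 0.0661), and Il1rn, the antagonist of the IL-1 receptor, -0.35 (adjusted p = 0.708) on 3 to 41 counts. Tnf, at 0 to 16 counts per library, and Ccl20, at 0 to 19, did not pass the filter.

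Matrix and fibrosis genes rose for 13 of 29 and fell for 3 (median 0.79), where 20.1% of all genes rose and 18.3% fell. These shares were 26.7% and 27.9% without the library labelled mouse 1, when 19 rose and 4 fell (median 0.93). Postn (periostin, a matrix protein of activated fibroblasts; chr3:54361109-54391037) had 8.10, 10.01, 6.85 and 10.5 CPM at Day 3 and 43.4, 171, 197 and 121 CPM at Day 5, a 15.0-fold rise (log2 fold change 3.90, SE 0.435, adjusted p = 0.00207). The proteoglycan Dcn and smooth muscle actin Acta2 rose 6.50-fold and 5.35-fold (adjusted p = 0.00967 and 0.00345); both are also made by fibroblasts and vessels outside the tubule. Of 32 cell cycle genes 6 rose and 0 fell (median 0.39), a share below the 20.1% of all genes that rose, and without that library 13 of 34 rose and 2 fell (median 0.55). Those that rose with all libraries included Ube2c (0.976 to 1.75 CPM against 6.30, 3.80, 4.24 and 11.2 CPM, adjusted p = 0.00444), Cdk1 and Aurka, on 8 to 75 counts per library. Mki67, the common proliferation marker, named after its value was seen, had a log2 fold change of 0.97 (adjusted p = 0.102).

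Most genes of the ribosome rose, by small amounts. Of 78 cytosolic ribosomal protein genes 59 rose and 0 fell (63 and 0 without the library labelled mouse 1). Their median log2 fold change was 0.81, or 0.87 without that library, and 1 was a DEG. Over all genes 20.1% rose and 18.3% fell, or 26.7% and 27.9% without that library. Rpl36 had 194, 190, 178 and 174 CPM at Day 3 and 314, 631, 578 and 758 CPM at Day 5, a 3.10-fold rise (adjusted p = 0.00343). Processed pseudogenes carry near copies of these genes, so some reads may have been split. Of 67 nuclear genes of the respiratory chain 26 rose and 7 fell (median 0.34; 33 and 14 without that library, median 0.37), led by Ndufb7, Atp5e and Uqcrq with rises of 2.64-fold, 2.52-fold and 2.40-fold.

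Gene length and RNA type moved with the day as well. The median log2 fold change was 0.30 in the fifth of genes with the shortest annotated length (56 to 2037 bases) and -0.24 in the fifth with the longest (7053 to 123179 bases). Genes resembling ribosomal RNA summed to 10940 to 15839 CPM at Day 3 and to 21171, 34275, 44330 and 56965 CPM at Day 5, and all 5 tested rose (median 1.53; 5 of 6 without the library labelled mouse 1). Among 8 nuclear-retained RNAs tested 4 rose and 1 fell (5 and 1 of 9 without that library), with Malat1 at 1881 to 2384 CPM at Day 3 and 1179 to 2415 CPM at Day 5. The part of length, ribosomal RNA and the mt-* share in the other results was not tested.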

How the data were processed

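Whole-kidney RNA of single mice was sequenced by the authors, with 4 mice in each of 8 groups. The deposited raw counts of reads per gene (54532 genes, without normalization, coordinates of GRCm38) were used; the deposited FPKM table was not. HTSeq and DESeq2 are listed in the submitters' processing notes without version, along with GRCm39, whereas 53499 of 54409 shared gene IDs had their GRCm38 coordinates. Strandedness is not given in the sources used here. Of 54532 genes, 37 named mt-* were removed. Total counts per library are given with the results.

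The comparison was fitted on its 8 libraries with edgeR 4.0.16 in R 4.3.3 (TMM, filterByExpr, robust quasi-likelihood test; limma 3.58.1, the data.table package, version 1.17.8), and the sex interaction on 16. CPM are TMM-scaled. Summed CPM add the members of a list. Principal components used log2 CPM with a prior count of 2. Alternatives were DESeq2 1.42.0, other filters and scalings, mt-* kept, voom weights, a mouse-number block and each mouse left out. Counts were simulated over 15662 genes for the 8 libraries. Of 98 genes changed by a log2 of 2, 80 were called, as were 96 of 98 changed by 3 and 3 unchanged genes. The simulation changed few genes and gave both days the same spread. In the data, root mean square log2 differences were 0.295 to 0.463 between Day 3 libraries and 0.794 to 1.08 between Day 5 libraries. The simulated counts therefore do not give the error rate of this comparison.

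Members and gene lists were chosen with earlier results of these data known. Genes named are the 10 largest rises and falls among non-overlapping protein-coding DEGs of both fits, up to 3 called genes a list with the largest absolute change, cytokine and injury genes the paper discusses, the 3 genes of lowest interaction p, and sex-linked genes; others are marked. Each library is a separate mouse. A list of clock genes and some other genes under these rules are not reported here.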

Additional observations from a re-analysis of the deposited data

Results flagged for a closer look

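Values were marked where the highest or lowest of 4 libraries stood apart from the other 3 by Dixon's criterion, which chance meets in about 1 in 20 groups. This held for 26 of 234 groups, 12 of them in the library labelled male Day 5 mouse 1.

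In that library, Cyp4b1 had 368 CPM, Chga 37.99, Scg2 17.7, Slc22a6 342, Aqp2 1010, Acaa1b 441, Gclm 337, Fbp1 716 and Xist 349 CPM, with 42.5% of counts on mt-* genes, 11334153 counts on other genes and 22796 genes detected. It was above the other 3 Day 5 libraries for each gene other than Aqp2, for which it was below them.

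In Day 5 mouse 3, Saa3 (17.0 CPM), Lcn2 (262 CPM), Havcr1 (7.49 CPM) and Ccl6 (102 CPM) stood above the other Day 5 libraries. Atp6v1c2 (170 CPM) and Trbc2 (10.1 CPM) did so in Day 5 mouse 4.

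Day 3 mouse 1 stood above the other Day 3 libraries for Hbb-bt (0.183 CPM), Chga (0.304 CPM), Saa3 (2.37 CPM), Lyz2 (47.5 CPM), Cxcr2 (0.365 CPM) and Xist (0.304 CPM), the values of Hbb-bt, Chga, Cxcr2 and Xist resting on 3 to 6 counts, and had the fewest counts without mt-* (16694667). Ptpro (35.3 CPM) was highest in Day 3 mouse 3.

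The change from Day 3 to Day 5 differed between the sexes in a test of the interaction for 1002 genes. The interaction was -5.66 for Ugt2b37, -3.84 for Cyp7b1 and -2.33 for Galns, the change in males being the lower for all 3.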

How the results depend on the processing

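The DEG count of 1572 was 987 with at least 10 counts required in every library, 2536 with voom sample weights and 2973 at an absolute log2 fold change over 1; the 6087 genes at an adjusted p under 0.05 were 9433 with voom weights. Leaving out 1 mouse at a time gave 1199 to 2950 DEGs and 3678 to 9117 genes; 3678, 3863 and 3780 came without Day 3 mice 2, 3 and 4, 3913 without Day 5 mouse 2, and 2950 DEGs and 9117 genes without the library labelled mouse 1. Without that library, DEGs numbered 1698 with at least 10 counts and 4816 at a fold over 1, the latter added after the data were seen, as was leaving out a second mouse (2533 to 3275 DEGs, 7664 to 9827 genes). The share of DEGs that rose was 65.9%, but 52.1% with voom weights, 56.2% with the mouse-number block and 54.6% without the library labelled mouse 1. R2 was 0.531 to 0.720 over the mice left out, with an exact p of 0.0571 without any 1 Day 3 mouse. Without a filter the median of all genes was -0.12, or -0.28 without the library labelled mouse 1, and list medians are read against it.

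The 1002 interaction genes were 2245 with the DESeq2 Wald test, 619 without a filter and 452 with the replicate block. Leaving out 1 library gave 246 to 3936. Among males, omitting Day 3 mice 1 to 4 gave 520, 246, 294 and 322, and omitting Day 5 libraries 1 to 4 gave 3936, 336, 547 and 472. Among females, Day 3 mice 1, 3 and 4 gave 410, 283 and 518, and Day 5 mice 2, 3 and 4 gave 2205, 459 and 415. Mouse numbers did not pair the libraries (same-number correlations of deviations -0.13 to 0.02, and 0 of 4 Day 5 mice correlated best with their own number). The replicate block gave 1555 DEGs and 4679 genes, and 2785 and 7717 without the library labelled mouse 1. Changes of sign occurred for Lcn2 (-1.17; range over the mice left out up to 1.51) and Ccl6 (-0.71; up to 1.26) without Day 5 mouse 3 and for Il1rn with voom weights (0.42) and without the library labelled mouse 1 (0.12; down to -0.68), none of them called. Of 107 called genes under the naming rule, 0 changed sign and 84 stayed called whichever mouse was left out. In the 9 settings that kept every mouse, 76 stayed called wherever they were tested. A setting in which a gene was not tested was not counted against it. With at least 10 counts required in every library, 82 stayed called, 0 lost the call and the rest were not tested. The median of the thick ascending limb list (0.13) was -0.37 with voom weights and -0.02 with the block, and that of the glycolysis list (0.14) -0.03 and -0.33 without Day 5 mice 2 and 4. The causes were not tested. Counts of 1 to 3 at Day 5 depths limit what low genes can show.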
